A study of Mus musculus with 3 samples.

Results

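The globin genes of the mouse encode the protein chains of haemoglobin. The series table was searched for 8 of them: Hbb-y, Hbb-bh1, Hbb-bt and Hbb-bs of the beta cluster, and Hba-x, Hba-a1, Hba-a2 and Hbq1b of the alpha cluster. They were found by matching RefSeq accessions to gene symbols, and all 8 had a row, in 10 of the 16383 transcript rows. The values came from RNA sequencing of whole lung, in RPKM, that is, reads scaled to transcript length and to the reads of the library. There were 2 libraries of the genotype labelled Lin28a and Lin28b KO, called DKO 1 and DKO 2, and 1 wild-type library, called WT. In the knockout, tamoxifen activated an NKX2.1creERT recombinase, which is specific to epithelium, and exon 2 of each gene lay between loxP sites. All 3 libraries had the strain label C57BL/6J/mixed background. The labels do not say how old the mice were, of which sex, or if DKO 1 and DKO 2 were different animals, nor whether the WT mouse carried the recombinase or received tamoxifen. The spread between the DKO libraries may therefore be partly technical.

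Haemoglobin joins 2 chains from the alpha cluster with 2 from the beta cluster. In the mouse embryo, primitive red cells from the yolk sac make the embryonic chains encoded by Hbb-y, Hbb-bh1 and Hba-x, and definitive red cells from the fetal liver and later the bone marrow make the adult chains encoded by Hbb-bs, Hbb-bt, Hba-a1 and Hba-a2. Hbq1b encodes a theta chain, whose function is not settled. LIN28B is known from human erythroid cells as a factor that favours fetal over adult globin. Globin RNA in lung comes mainly from the blood that the organ holds. The recombinase acts in lung epithelium, and whole-lung libraries do not separate blood from epithelium.

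The genes lie in 2 clusters, each gene with 3 exons, and their coordinates are on GRCm38 (mm10). On chromosome 7, on the minus strand, stand Hbb-y (103851754 to 103853207), Hbb-bh1 (103841638 to 103843162), Hbb-bs (103826523 to 103827928) and Hbb-bt (103812524 to 103813923). On chromosome 11, on the plus strand, stand Hba-x (32276600 to 32278116), Hba-a1 (32283672 to 32284486), Hbq1b (32286964 to 32287912) and Hba-a2 (32296492 to 32297310). How far a transcript can be told from its neighbours decides what its RPKM means, so the first 60 coding bases of the genes are shown, from GENCODE M21 transcripts. In the adult pairs a capital would mark a base that differs within the pair, and there is none in this stretch.
Hba-a1: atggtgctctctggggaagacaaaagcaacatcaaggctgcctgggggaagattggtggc
Hba-a2: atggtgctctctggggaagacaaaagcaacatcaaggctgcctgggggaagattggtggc
Hbb-bs: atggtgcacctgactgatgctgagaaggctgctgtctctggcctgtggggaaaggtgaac
Hbb-bt: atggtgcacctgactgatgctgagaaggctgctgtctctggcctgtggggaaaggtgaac
In the embryonic genes the capitals mark bases that differ between Hbb-y and Hbb-bh1 (21 of 60), and bases at which Hba-x differs from Hba-a1 (28 of 60).
Hbb-y: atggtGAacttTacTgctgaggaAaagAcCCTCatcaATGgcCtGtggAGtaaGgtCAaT
Hbb-bh1: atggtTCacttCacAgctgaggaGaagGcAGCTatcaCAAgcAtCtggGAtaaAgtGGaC
Hba-x: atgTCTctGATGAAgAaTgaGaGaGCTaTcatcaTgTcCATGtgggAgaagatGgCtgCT

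Over the whole coding sequence without the stop codon, Hba-a1 and Hba-a2 differed at 1 of 426 bases and Hbb-bs and Hbb-bt at 1 of 441. The embryonic beta genes Hbb-y and Hbb-bh1 were 76.4% identical, and Hba-x and Hba-a1 61.7%. Each transcript was also divided into every window of 50, 75 and 100 bases, since the read length is not given in the sources used here, and windows found in a transcript of another gene were counted. Of the windows of Hbb-y, Hbb-bh1 and Hba-x, 0 were shared at any of these lengths. In Hba-a2 86.9% of 50-base windows occurred in Hba-a1 too, and in Hbb-bs 65.8% occurred in Hbb-bt. Hbq1b stood between, with 39.8% of its 50-base windows shared with its copy Hbq1a, so that part of its reads could belong to either gene.

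**Figure D1:**
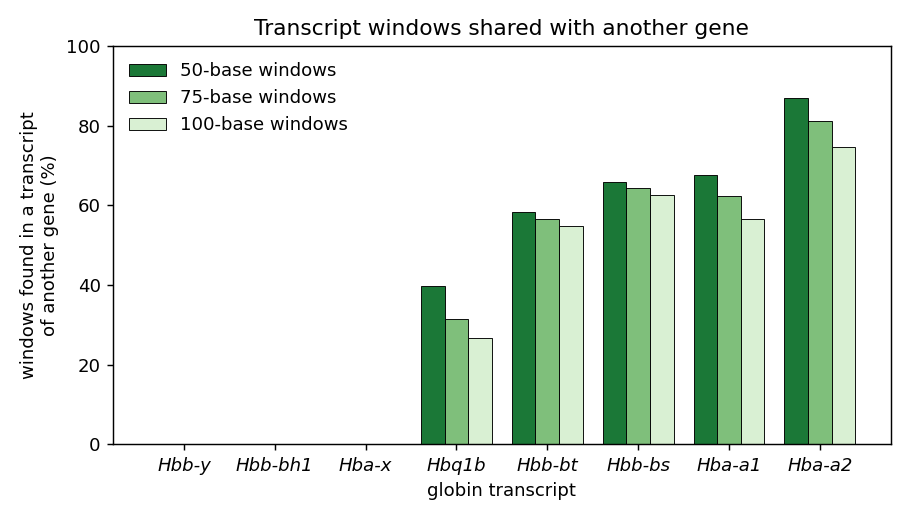
Share of the windows of each globin transcript (percent) that also occur in a GENCODE M21 transcript of another gene, for windows of 50, 75 and 100 bases. Hbb-y, Hbb-bh1 and Hba-x share none, Hbq1b shares 26.6% to 39.8% and the 4 adult genes share 54.8% to 86.9%.

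The adult genes were listed at 0. Their 6 rows gave 18 values, of which 17 were 0, and the other was 0.0510 RPKM for Hbb-bs in DKO 1, which stands for about 1 read. Hba-a1 and Hba-a2 had 2 rows each under the same accession. Of the 974 rows in the table whose accession was listed more than once, 961 (98.7%) were at 0 in all 3 libraries, against 66.0% of the rows with an accession listed once. Hbb-bs and Hbb-bt had 1 row each, so the share for repeated accessions does not cover them. Zeros can be failed estimates, which was not tested for any of the adult genes. The amount of adult globin RNA is therefore not known from these rows. A ratio of embryonic to adult globin, in either cluster, therefore could not be formed for any library. How reads of the adult genes were assigned was not tested. What follows rests on the 4 genes with measured values, Hbb-y, Hbb-bh1, Hba-x and Hbq1b, of which the lowest single value was 4.83 RPKM.

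Hbb-y, the embryonic epsilon-y chain, was the most abundant of the globin transcripts with measured values. It had 25259 RPKM in DKO 1 and 91331 RPKM in DKO 2, against 18354 RPKM in WT. In each DKO library it was the highest of all 16383 rows and in WT it ranked 2. As a share of reads, from RPKM and annotated length, it took 1.60% in DKO 1 and 5.78% in DKO 2, and 1.16% in WT. DKO 1 was 1.38-fold and DKO 2 4.98-fold above WT.

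Hbb-bh1, the other embryonic beta chain, had 2195 RPKM in DKO 1 and 5338 RPKM in DKO 2, against 1158 RPKM in WT. These are 1.90-fold and 4.61-fold the WT value. Hba-x, the embryonic zeta chain that takes the place of alpha globin in primitive red cells, had 1240 RPKM in DKO 1 and 6023 RPKM in DKO 2, against 679.5 RPKM in WT, which are 1.82-fold and 8.86-fold. In all 3 embryonic genes DKO 2 stood furthest from WT and DKO 1 lay nearer to WT than to DKO 2. DKO 2 exceeded DKO 1 by 3.62-fold for Hbb-y, 2.43-fold for Hbb-bh1 and 4.86-fold for Hba-x.

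Hbq1b, the theta chain gene, was far less abundant. It had 28.5 RPKM in DKO 1 and 47.9 RPKM in DKO 2, against 4.83 RPKM in WT, or about 491, 920 and 132 reads. The DKO libraries were 5.89-fold (95% exact binomial interval 4.86 to 7.21) and 9.91-fold (8.26 to 12) above WT. These intervals cover counting error only and treat reads shared with Hbq1a as its own. DKO 2 was 1.68-fold above DKO 1, so that here both DKO libraries were nearer to each other than to WT.

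**Figure D2:**
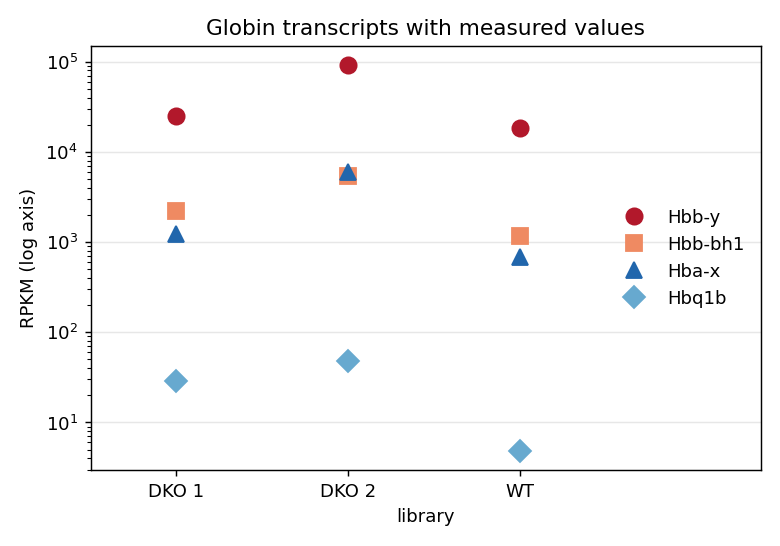
RPKM (log axis) of Hbb-y, Hbb-bh1, Hba-x and Hbq1b in the 2 DKO libraries and the WT library, 1 point per library. All 4 transcripts are highest in DKO 2 and lowest in WT, and Hbb-y reaches 91331 RPKM in DKO 2. The adult genes are not drawn because their rows are listed at 0.

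The DKO libraries were compared with WT on the log2(RPKM + 1) scale for the 2066 transcripts that averaged 1 RPKM or more over the libraries, with limma and Benjamini-Hochberg adjustment over all of them (two-sided). A transcript low in DKO 1 and WT could reach this mean through DKO 2 alone, and was then tested. Only the 2 DKO libraries gave an estimate of the spread, which was carried over to the lone WT library. The log2 difference of DKO minus WT was 1.39 for Hbb-y (SE 0.70, limma adjusted p = 0.999), 1.56 for Hbb-bh1 (SE 0.77, adjusted p = 0.999) and 2.01 for Hba-x (SE 0.91, adjusted p = 0.999). For Hbq1b it was 2.70 (SE 0.75, adjusted p = 0.494). By limma 0 of the 4 passed, against 2 of all 2066 (0.0968%), and voom on approximate reads called 0 of the 4 as well. At an unadjusted p under 0.05 stood 2 of the 4, Hba-x and Hbq1b, against 3.19% of all transcripts. Hbq1b passed limma only when transcripts under a mean of 5 RPKM were left out (adjusted p = 0.00928), and over the other alternatives its adjusted p lay between 0.162 and 0.997.

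All 4 were above WT in both DKO libraries, as were 32.1% of the tested transcripts, while 31.0% were below it in both. Their median log2 difference was 1.78, and that of all tested transcripts was −0.01. In DKO 2, 4 of the 4 were at least 2-fold above WT on this scale, against 15.1% of all, and in DKO 1 1 of the 4, Hbq1b, against 8.03%. A stricter rule of size asked that both DKO libraries lie at least 2-fold to the same side of WT, and closer to one another than the nearer of them lay to WT. Hbq1b met it, with differences of 2.34 in DKO 1 and 3.07 in DKO 2, and the embryonic genes did not. Of all transcripts, 3.19% (66) met it as higher, and 31 others met it as lower. On the TPM scale 71 transcripts were higher and 67 lower by this rule, and Hbq1b still met it. Without DKO 2, the log2 difference from WT fell to 0.46 for Hbb-y, 0.92 for Hbb-bh1 and 0.87 for Hba-x, so the size of the embryonic differences rests largely on that library.

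**Figure D3:**
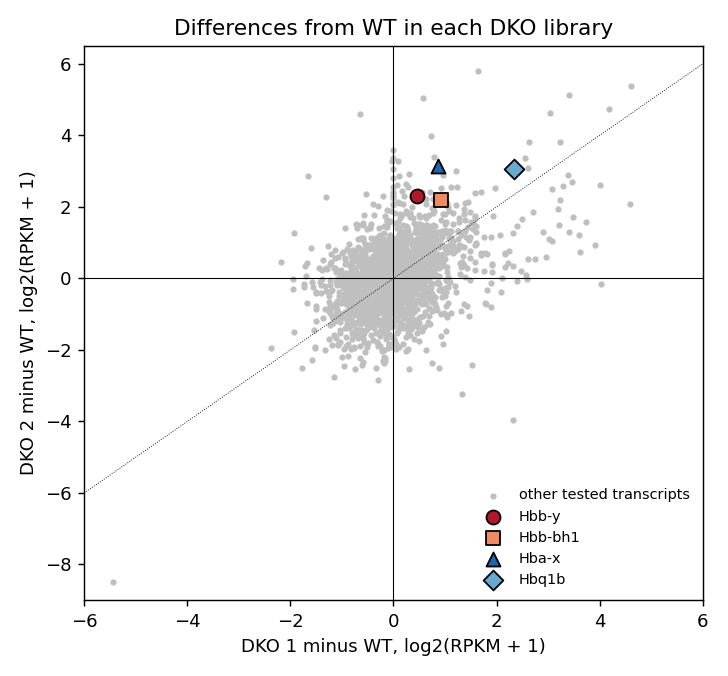
Difference from WT on the log2(RPKM + 1) scale in DKO 1 (horizontal) and DKO 2 (vertical), 1 point per tested transcript, with the 4 measured globin transcripts marked and a dotted line where both differences are equal. Hbb-y, Hbb-bh1 and Hba-x lie near 0.46 to 0.92 in DKO 1 and between 2.20 and 3.15 in DKO 2, while Hbq1b lies at 2.34 and 3.07.

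Ratios between globin transcripts of the same library do not depend on library scaling, and they compare levels per length. Hbb-bh1 stood at 0.0869 of Hbb-y in DKO 1 and 0.0584 in DKO 2, against 0.0631 in WT, so WT lay between the DKO libraries. In the mouse embryo Hbb-bh1 is known to precede Hbb-y as primitive red cells mature, and this ratio did not separate DKO from WT. Hba-x stood at 0.0491 of Hbb-y in DKO 1 and 0.0659 in DKO 2, against 0.0370 in WT. Both DKO values were above WT, and the DKO libraries differed from each other by more than DKO 1 differed from WT. Hbq1b stood at 0.0230 of Hba-x in DKO 1, and at 0.00795 in DKO 2 and 0.00711 in WT, so DKO 1 was apart and the other two were close.

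The summed RPKM of the beta-cluster genes over that of the alpha-cluster genes was 21.6 in DKO 1 and 15.9 in DKO 2 (mean 18.8 ± 4.05, SD, n = 2), against 28.5 in WT. The DKO libraries were lower than WT, and DKO 1 lay between DKO 2 and WT. With Hba-a1 and Hba-a2 listed at 0, this is in effect Hbb-y and Hbb-bh1 over Hba-x and gives no balance of the chains. The two-sided exact permutation p over the 3 libraries was 0.333 for this ratio, which is the smallest they allow, and 0.667 or above for the other 3 ratios. No ratio could thus pass a threshold of 0.05 in this design.

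**Figure D4:**
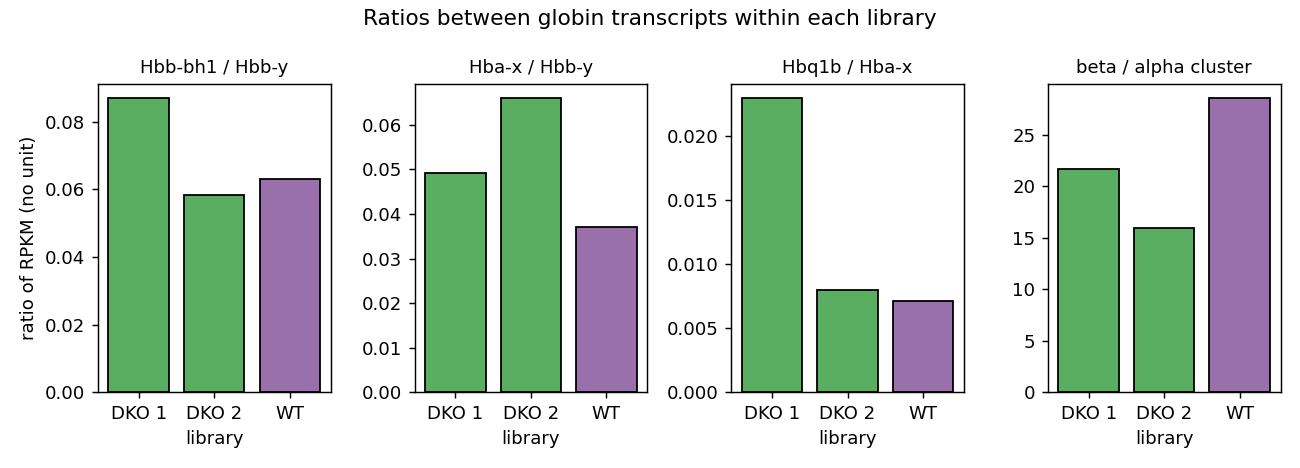
Ratios of RPKM within each library for Hbb-bh1 to Hbb-y, Hba-x to Hbb-y, Hbq1b to Hba-x and the summed beta to the summed alpha cluster, 1 bar per library and no error bars, since each bar is a single library. The beta to alpha ratio is 21.6 and 15.9 in the DKO libraries and 28.5 in WT, and the Hbb-bh1 to Hbb-y ratio of WT (0.0631) lies between those of the DKO libraries.

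Because the embryonic genes differed in the same direction, the 150 bases before the start sites of 3 of the 4 measured genes were read from RefSeq (GRCm38.p6), which has 7 of the 8 promoters in the table used. Capitals mark matches, on either strand, to CACCC, the core of the box that Klf1 binds, to CCAAT, the box of that name, to GATAA, the core of the Gata1 motif, and to ATAAA, which is part of the TATA box of many globin genes. No match overlaps another in the sequences shown.
Hbb-y, chr7:103853208-103853357, minus strand: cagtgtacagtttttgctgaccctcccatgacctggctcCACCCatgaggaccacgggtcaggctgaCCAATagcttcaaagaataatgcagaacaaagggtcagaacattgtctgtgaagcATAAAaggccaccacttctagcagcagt
Hba-x, chr11:32276450-32276599, plus strand: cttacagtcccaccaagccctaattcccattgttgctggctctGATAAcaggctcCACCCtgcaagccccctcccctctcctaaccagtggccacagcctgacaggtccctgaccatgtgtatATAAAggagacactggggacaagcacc
Hbq1b, chr11:32286814-32286963, plus strand: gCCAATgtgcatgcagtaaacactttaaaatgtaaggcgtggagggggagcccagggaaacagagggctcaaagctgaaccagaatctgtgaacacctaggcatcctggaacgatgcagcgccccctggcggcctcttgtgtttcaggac
Hbb-y and Hba-x both hold CACCC about 100 bases before the start (first base at 111 and 95) and the TATA-like ATAAA close to it (28 and 27). In Hbq1b CCAAT alone was found, at 149. Over the 250 bases before the start, CACCC occurred in 6 of the 7 promoters and in 52.0% of all 32851 promoters of that length, CCAAT in 6 and 33.8%, GATAA in 6 and 22.6%, and ATAAA in 3 and 37.3%. A match of letters is a description and not a site of binding.

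Other genes of red cells were looked at for the same order of libraries. In bulk tissue, more red cells and more globin RNA per red cell cannot be told apart. Among the markers with the highest levels, Car2, Bnip3l and Bpgm did not follow that order. Car2, a carbonic anhydrase, had 44.3, 33.8 and 33.7 RPKM in DKO 1, DKO 2 and WT, and Bnip3l, which acts in the removal of mitochondria from maturing red cells, had 44.1, 30.2 and 29.2 RPKM. Bpgm, which sets the oxygen affinity of haemoglobin through its product, had 6.42, 16.6 and 11.6 RPKM. All 3 are expressed in other cells too. Of the 33 red cell genes in the list, 24 had a row, 8 were tested and 0 passed limma. Of the 8, 6 were above WT in both DKO libraries and 0 below in both, against 32.1% and 31.0% of all tested transcripts. The median log2 difference was 0.39. The summed level of the list was 121 RPKM in DKO 1 and 170 RPKM in DKO 2, against 91.1 RPKM in WT. In all 3 libraries 7 of its genes, among them Ank1 and Car1, were listed at 0.

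Haem synthesis supplies the iron-bearing group of haemoglobin, and its tested genes did not share 1 direction. Uros, the fourth enzyme of the pathway, had 6.57 RPKM in DKO 1 and 17.7 RPKM in DKO 2, against 2.81 RPKM in WT. Fech, which inserts the iron, had 5.98 and 18.1 RPKM against 3.51 RPKM in WT. Urod, which acts after Uros, lay on either side, with 14.3 RPKM in DKO 1 and 55.1 RPKM in DKO 2, against 38.6 RPKM in WT. Of the 17 genes, 11 had a row, 7 were tested and 0 passed limma. Of the 7, 3 were above and 2 below WT in both DKO libraries, against 32.1% and 31.0% of all tested transcripts. The median log2 difference was −0.10. Alas2, the erythroid first enzyme, was listed at 0 in every library, as was Alas1.

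Among 25 known or proposed regulators of globin genes, 23 had a row, 7 were tested and 0 passed limma. The median log2 difference was −0.01, close to that of all tested transcripts. Of the 7, 3 were above and 1 below WT in both DKO libraries, against 32.1% and 31.0% of all tested transcripts. Those above were Klf1, Lyl1 and Nfe2, and the 1 below was Hmga2, so the median joins genes of unlike direction. Klf1, Lyl1 and Nfe2 reached the mean of 1 RPKM through their DKO 2 values, so this filter favoured genes high in DKO 2. Nfe2 had 0.313 RPKM in DKO 1 and 6.77 RPKM in DKO 2, against 0.259 RPKM in WT. Klf1, the erythroid factor that binds CACCC boxes, had 0.340 RPKM in DKO 1 and 7.18 RPKM in DKO 2, against 0.0803 RPKM in WT. Lyl1, a blood transcription factor, had 1.39 and 10.02 RPKM against 0.296 RPKM in WT. Both were highest in DKO 2, and lower in WT than in either DKO library. The more abundant Hmga2 and Nfe2l2 had another order. Hmga2, which encodes a DNA-bending chromatin factor, had 18.3 RPKM in DKO 1 and 20.8 RPKM in DKO 2, against 34.02 RPKM in WT. Nfe2l2, a stress response factor, had 5.69 and 1.92 RPKM against 5.46 RPKM in WT. Lin28b, 1 of the deleted genes, had 0.187 RPKM in DKO 1 and 0.590 RPKM in DKO 2, against 0.449 RPKM in WT, so it was not lower in the library labelled DKO 2. RPKM over the whole transcript and all lung cells checks the deletion of 1 exon in epithelium only weakly. Myb, Runx1, Sox6 and Lmo2 were listed at 0.

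By a fixed measure, the Euclidean distance between a transcript's differences from WT in DKO 1 and DKO 2 and the mean pair of the 3 embryonic genes (0.75 and 2.56), the 5 nearest other transcripts were Krt17, Ampd1, Stfa2, Gstm2 and Uros, at distances of 0.15, 0.18, 0.24, 0.33 and 0.36. Krt17, Ampd1 and Stfa2 were listed at 0 in WT and below 5 RPKM in DKO 2. Likeness over 3 libraries rests on 2 differences that share the WT library, and is a description only.

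Genes of other tissues and cells also differed between the libraries. Of lung epithelial genes, Sftpc, which encodes surfactant protein C, had 7.55 RPKM in DKO 1 and 0.0364 RPKM in DKO 2, against 369 RPKM in WT, and Epcam, an epithelial adhesion molecule, had 6.75 and 10.6 RPKM against 17.4 RPKM in WT. Every library had a listed 0 for Nkx2-1, the lung epithelial gene whose promoter the recombinase uses, and such a value can be a failed estimate. The liver list had a summed level of 11.4 RPKM in DKO 1 and 184.8 RPKM in DKO 2, against 7.55 RPKM in WT. Of its 5 tested genes 3 were above WT in both DKO libraries, against 32.1% of all tested transcripts. Alb and Ttr reached the mean needed for testing through DKO 2 alone, so the filter favoured genes high there. Ttr had 0, 8.81 and 0.0168 RPKM in DKO 1, DKO 2 and WT. Afp, a fetal liver and yolk sac protein, had 0.891, 69.96 and 1.95 RPKM in DKO 1, DKO 2 and WT, and Alb 0.654 and 14.8 RPKM in the DKO libraries and was listed at 0 in WT. Ahsg, Fga, Apoc3, Rbp4, Serpina1a and Serpina1b were listed at 0 in all 3. The heart muscle list summed to 19.4 RPKM in DKO 1 and 112 RPKM in DKO 2, against 29.2 RPKM in WT. Of its 4 tested genes 1 was above WT in both DKO libraries, against 32.1% of all tested transcripts. Myl2, with 4.90 RPKM in DKO 2 and a listed 0 in DKO 1 and WT, was tested through DKO 2 alone. Tnnt2, Myh6, Nppa, Nppb, Pln and Tnni1 were at 0. Like the embryonic globins, these lists were highest in DKO 2. The summed level of the leukocyte list was highest in DKO 1, with 477 RPKM in DKO 1 and 251 RPKM in DKO 2, against 86.6 RPKM in WT. Of its 10 tested genes 8 were above WT in both DKO libraries, against 32.1% of all tested transcripts. By limma 0 of the 10 passed, against 0.0968% of all. An unadjusted limma p under 0.05 was found for 5 (3.19% of all). The rule of size was met as higher by 3 (3.19% of all), as it was by Hbq1b. Tyrobp, a receptor adaptor of myeloid cells, was highest in DKO 1, with 219 RPKM in DKO 1 and 52.3 RPKM in DKO 2, against 24.9 RPKM in WT. S100a8, abundant in neutrophils, was highest in DKO 2, with 72.2 RPKM in DKO 1 and 107.6 RPKM in DKO 2, against 3.04 RPKM in WT (limma adjusted p = 0.0546). Of the 21 leukocyte genes with a row, Ptprc, Cd68, S100a9, Ngp and Elane were at 0 in all 3. The 4 Y-linked genes summed to 22.3 RPKM in DKO 1 and 8.11 RPKM in DKO 2 and were listed at 0 in WT, so sex and genotype cannot be told apart here. The part of these differences in the globin values was not tested.

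**Figure D5:**
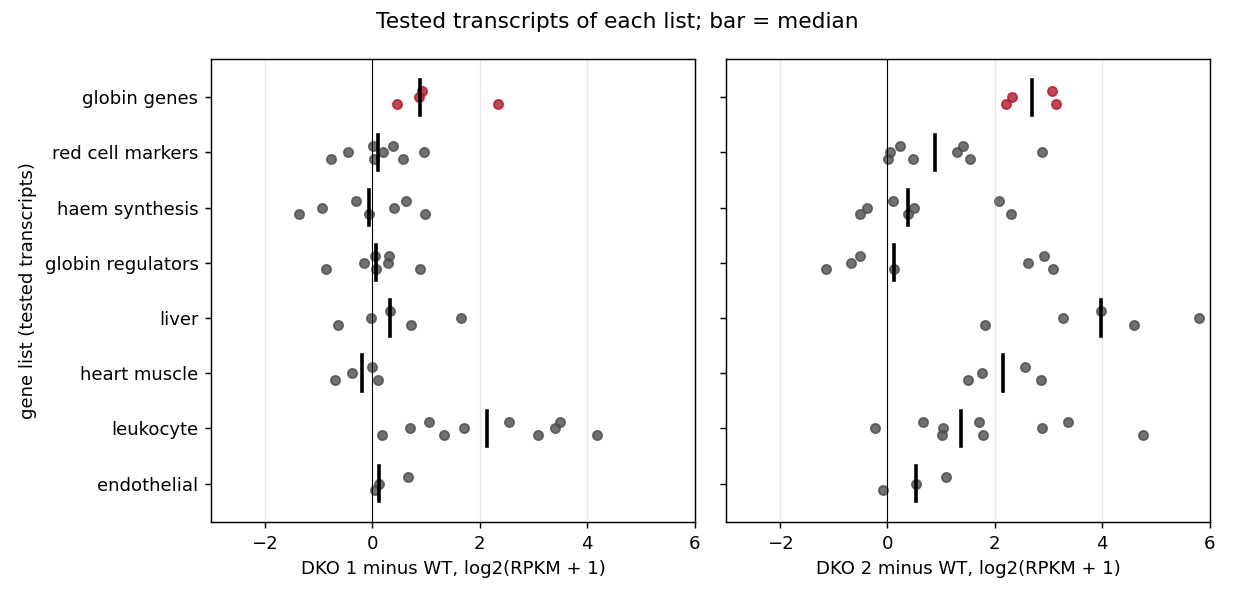
Differences from WT on the log2(RPKM + 1) scale in DKO 1 (left) and DKO 2 (right), 1 point per tested transcript of each gene list, with the median of the list as a bar. The median of the globin genes is 0.89 in DKO 1 and 2.69 in DKO 2, that of the liver list is 0.32 and 3.98, and that of the red cell list is 0.11 and 0.88. Alb and Ttr of the liver list reached the level for testing through DKO 2 alone.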

How the data were processed

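Whole-lung RNA was extracted with Trizol and made into libraries with the SMARTer Ultra Low Input kit, per the labels. The authors deposited RPKM values for RefSeq transcripts, 1 column per library. Per the submitters' processing notes the tools were cutadapt, TopHat2, HTSeq and edgeR with build mm10. Their settings and their order are not known from the labels. From low values, the depth was estimated as 30700000 reads in DKO 1, 34200000 in DKO 2 and 48700000 in WT. Read numbers are approximate, since only 43.8% to 45.6% of values of 1 to 100 reads lay within 0.05 of a whole read.

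Symbols came from RefSeq (GRCm38.p6) for 16150 rows and GENCODE M21 for 78, leaving 155 unnamed. Limma 3.58.1 in R 4.3.3, with a mean-variance trend, tested log2(RPKM + 1), which understates changes of low genes. It had 1 residual degree of freedom and a prior of 11.2. It was also run on simulated data in which every library had a spread taken from the DKO libraries. Such data cannot check whether WT has that spread. Pairwise identity used Biopython 1.88, and shared windows were sought with blastn 2.17.0 and exact matching in GENCODE transcripts, which leaves out unannotated copies. The members and gene lists were chosen with earlier results of these data known. The genes named are the members, the 5 nearest to the embryonic profile and up to 4 of each list with the highest mean RPKM, without predicted genes. Lin28b, Nfe2, Ttr, Sftpc, Epcam, Nkx2-1, Hbb-bh2, Mb and genes listed at 0 were added after their values were seen. Not every gene the rule takes is printed, and a single one is not reported here. Alternatives were other pseudocounts, filters, scalings and moderation, voom, other folds and leaving out each DKO library.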

Additional observations from a re-analysis of the deposited data

How the results depend on the processing

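Over 11 other settings of the fit, the log2 differences of DKO minus WT kept their direction, from 0.95 to 1.39 for Hbb-y, 1.34 to 1.60 for Hbb-bh1, 1.78 to 2.01 for Hba-x and 2.10 to 2.91 for Hbq1b. With 1 library per group the values ranged from 0.46 to 2.31, 0.92 to 2.20, 0.87 to 3.15 and 2.34 to 3.07 in the same order. Hbq1b passed limma with a filter at 5 RPKM (2.70, adjusted p = 0.00928), which made 1 globin call in place of 0 and left fewer transcripts tested, and the limma adjusted p of Hbb-y was then 0.0611. TPM moved the median of all tested transcripts to −0.22, from −0.01.

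Over all transcripts, 2 limma calls became 13 with a pseudocount of 0.1, 1 with 5, 10 with a filter at 5 RPKM, 5 with median scaling, 14 with scaling without globin genes, and 0 without a filter (rows at 0 in every library left out), with quantile normalization, TPM or voom; the cause was not tested. The 97 transcripts past the 2-fold rule became 275 at 1.5-fold, 16 at 4-fold, 166 with a pseudocount of 0.1 and 34 with 5. Hbq1b met the rule in each of its 8 alternatives. The beta to alpha ratio in DKO was 14.9 from approximate reads (WT 22.5) and 19.1 without Hbq1b (WT 28.7), an alternative added after seeing the data, as were the ratios between single genes. Leaving out a DKO library gave 15.9 to 21.6, and 0.0584 to 0.0869 for Hbb-bh1 to Hbb-y, 0.0491 to 0.0659 for Hba-x to Hbb-y and 0.00795 to 0.0230 for Hbq1b to Hba-x. The planned ratios of embryonic to adult globin were not run, since their denominators were listed at 0. No paired analysis was possible because WT is a single library.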

Other observations

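Hbb-bh2, another gene of the beta cluster on chromosome 7, was lower in DKO 1 than in WT, unlike the embryonic genes. It had 0.641 RPKM in DKO 1, was listed at 0 in DKO 2 and had 1.95 RPKM in WT, or about 11, 0 and 53 reads. The listed 0 in DKO 2 can be a failed estimate. DKO 1 stood at 0.329 of WT (95% exact binomial interval 0.155 to 0.638, counting error only). It was below the level for testing, and 0 of its windows of 50 bases were shared with another gene. Of the globins outside red cells, Mb, the oxygen-storing protein of muscle, was seen in DKO 2 alone, at 1.42 RPKM, with a listed 0 in DKO 1 and WT.

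In the list of iron uptake and haem breakdown, Ftl1, a ferritin chain that stores iron, had 4297 RPKM in DKO 1 and 1148 RPKM in DKO 2, against 533 RPKM in WT (limma adjusted p = 0.999), and Tfrc, the transferrin receptor, had 3.75, 5.29 and 5.42 RPKM. Unlike the embryonic globins, Ftl1 was highest in DKO 1. Of the platelet list 1 gene was tested, Itga2b, with 8.43 RPKM in DKO 1 and 1.23 RPKM in DKO 2, against 0.538 RPKM in WT. The endothelial list, for the vessels that hold the blood, summed to 13.5 RPKM in DKO 1 and 17.4 RPKM in DKO 2, against 11.4 RPKM in WT. Of its 3 tested genes 2 were above WT in both DKO libraries, against 32.1% of all tested transcripts.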
